A study of Homo sapiens with 2 samples.

Results

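Binding of TCF7L1 was described at the 9 human genes of the R-spondin receptor system: the receptors LGR4, LGR5 and LGR6, the ligands RSPO1, RSPO2, RSPO3 and RSPO4, and the ubiquitin ligases RNF43 and ZNRF3. These are 9 of the 20033 protein-coding genes annotated in GENCODE release 44 on chromosomes 1 to 22, X and Y. For each gene, every binding summit was taken that lay inside the gene or within 100 kb of a transcription start site (TSS) of any of its transcripts. This gave 6 of the 3663 regions bound by TCF7L1 and 0 of the 204 regions bound by TCF7L1-MUT.

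R-spondins are secreted proteins that bring an LGR receptor and ZNRF3 or RNF43 together at the cell surface. ZNRF3 and RNF43 are transmembrane ligases that mark Frizzled and LRP6, the receptors of Wnt ligands, for removal, and R-spondin clears the ligases and so raises the level of Wnt receptors. In the intestine LGR5 marks crypt stem cells, and LGR5, RNF43 and ZNRF3 are known as target genes of Wnt/β-catenin signaling, and both ligases act as negative feedback. TCF7L1 is a TCF/LEF factor that binds DNA through an HMG box and acts mostly as a repressor of such targets.

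Both samples came from stable HCT116 cells, an established human colon adenocarcinoma line. Both carried a lentiviral shRNA (shTCF7L1-2) against endogenous TCF7L1 and were treated with 1 µg/ml doxycycline, which switched on a protein encoded by the pCW57.1 plasmid. That protein was FLAG-tagged TCF7L1 in one sample and FLAG-tagged TCF7L1-MUT, with a mutated DNA-binding domain, in the other, and chromatin was precipitated with a FLAG antibody and sequenced (ChIP-seq). The signal is therefore that of an introduced, tagged protein and not of the endogenous one. With 1 sample per group there were no replicates, no test between the groups was possible, and every count below describes these 2 libraries. Called regions and not reads were at hand, so total sequencing depth was not analysed here.

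Each region is described by the position of its summit and by the fold enrichment there, which compares the reads piled up there with those of the local background. The peak caller's −log10 q-value ranks how unlikely that pile is under that background within one library. Coordinates are 1-based in GRCh38/hg38.

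The 201 bp centred on a summit are shown for 4 of the 6 regions, because these hold the summit nearest to LGR5, the only summit at RNF43 and both summits at ZNRF3. All are written 5′ to 3′ on the plus strand of the chromosome. Capitals mark the TCF core, which is CTTTG followed by A or T at each of the next 2 positions, read on either strand. In the RNF43 sequence, which has no TCF core, capitals mark instead a forkhead pattern, TATTTAC or TGTTTAC on either strand. The first is upstream of LGR5 at chr12:71439191-71439391, the next in an intron of RNF43 at chr17:58391500-58391700, the third in an intron of ZNRF3 at chr22:29030808-29031008, and the last beyond the end of ZNRF3, in an intron of KREMEN1, at chr22:29080402-29080602.
LGR5 upstream: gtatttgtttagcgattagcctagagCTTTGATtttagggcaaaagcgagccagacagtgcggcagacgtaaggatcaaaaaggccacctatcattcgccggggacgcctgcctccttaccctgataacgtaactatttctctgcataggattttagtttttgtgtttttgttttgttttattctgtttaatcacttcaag
RNF43 intron: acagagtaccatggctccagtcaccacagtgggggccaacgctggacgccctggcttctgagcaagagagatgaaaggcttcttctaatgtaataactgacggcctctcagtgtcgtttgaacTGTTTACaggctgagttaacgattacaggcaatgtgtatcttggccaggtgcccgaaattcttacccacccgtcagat
ZNRF3 intron: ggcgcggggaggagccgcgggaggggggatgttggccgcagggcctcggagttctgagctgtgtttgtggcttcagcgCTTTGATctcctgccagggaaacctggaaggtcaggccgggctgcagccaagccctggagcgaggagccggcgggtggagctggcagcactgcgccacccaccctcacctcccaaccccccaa
ZNRF3 distal, in KREMEN1: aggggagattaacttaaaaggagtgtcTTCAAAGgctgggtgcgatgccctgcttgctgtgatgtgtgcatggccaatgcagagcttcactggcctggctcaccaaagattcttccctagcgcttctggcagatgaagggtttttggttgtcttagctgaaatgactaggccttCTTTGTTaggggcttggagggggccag

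To ask which of the 9 genes had TCF7L1 nearby, genes with at least 1 summit were counted. There were 4: LGR5 and ZNRF3 with 2 summits each, and RSPO2 and RNF43 with 1 each. Of all protein-coding genes, 4619 (23.1%) had a TCF7L1 summit by the same rule, so 4 of 9 stands beside a common property. A summit within 2.5 kb of a TSS was found at 1 of the 9 genes, LGR5, and at 962 of all genes (4.80%). A summit inside the gene was found at 2 of the 9, RNF43 and ZNRF3, and at 1444 of all genes (7.21%). By class, 1 of 3 receptors, 1 of 4 ligands and both ligases had a summit.

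Long genes offer more room for a summit, so the counts were also set beside genes of like length. LGR4, LGR5, LGR6, RSPO2 and ZNRF3 are 100 to 200 kb long, and 3 of these 5 had a summit, against 31.5% of 2165 genes of that length. RNF43 and RSPO3 are 50 to 100 kb long, and 1 of the 2 had a summit, against 26.1% of 3127 genes. RSPO1 and RSPO4 are 20 to 50 kb long, and neither had a summit, against 20.7% of 4857 genes. For a summit inside the gene, the shares of all genes were 16.8% in the class of ZNRF3 and 8.54% in the class of RNF43. The spans searched around the 9 genes covered 2.37 Mb and held 2.54 TCF7L1 summits per Mb, against 1.25 per Mb over chromosomes 1 to 22, X and Y. The latter rate includes stretches far from any gene, and no rate for spans around other genes was computed.

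**Figure D1:**
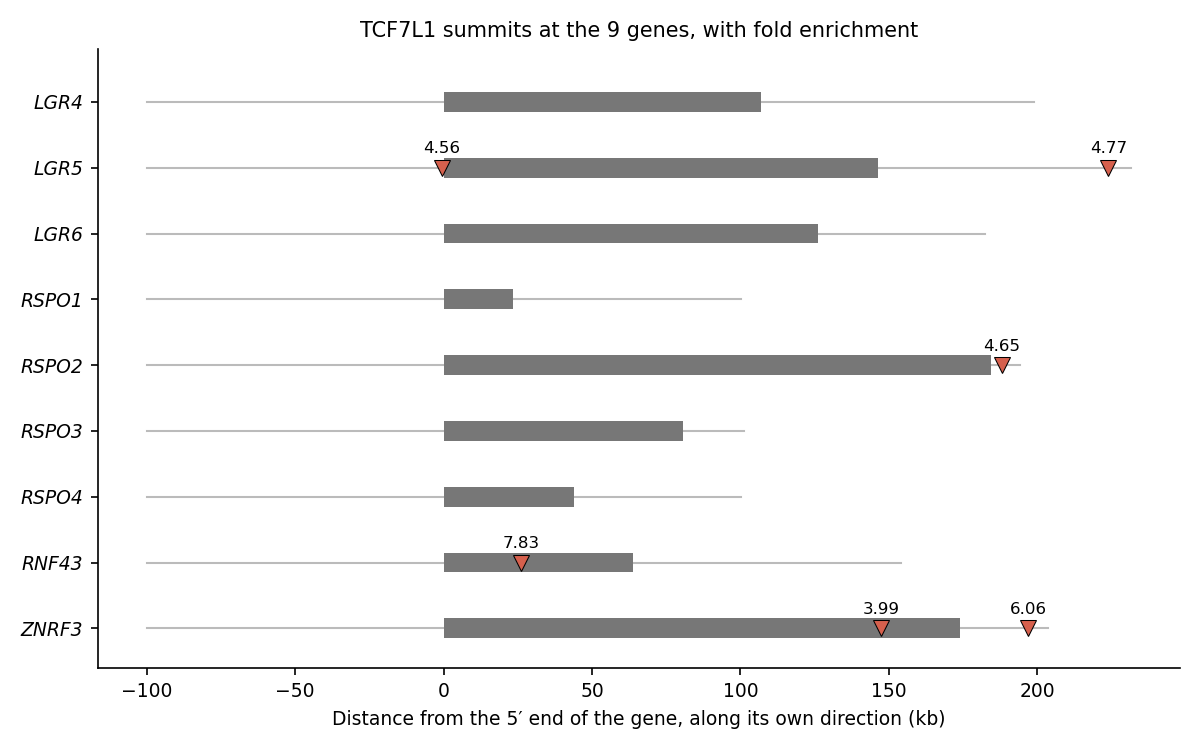
Position of the 6 TCF7L1 summits at the 9 genes. The horizontal axis is the distance in kb from the 5′ end of each gene along its own direction, dark bars are the genes, thin lines the stretch searched, and triangles the summits with their fold enrichment. LGR5 has a summit at its 5′ end (4.56), RNF43 (7.83) and ZNRF3 (3.99) have one inside the gene, and the other 3 lie beyond the 3′ end of LGR5, RSPO2 and ZNRF3.

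Among the receptors, LGR5 (ENSG00000139292.13, chromosome 12, 71439798 to 71586310, plus strand) had the summit closest to a start. The region spanned 71439011 to 71439612, and its summit at 71439291 lay 507 bp upstream of the TSS of the canonical transcript. The stack was 27 reads over a local background of 5.15, both solved from the deposited fold enrichment and p-value. The fold enrichment, 4.56, exceeded that of 35.4% of all TCF7L1 regions, and the −log10 q-value, 6.77, exceeded that of 62.3%. It was thus a region below the median in height and above it in −log10 q-value. Among the 916 promoter regions without a TCF7L1-MUT partner it ranked 481 by fold enrichment and 295 by −log10 q-value.

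The same position belongs to a second gene. TSPAN8, which encodes a tetraspanin and is read from the opposite strand, holds the LGR5 summit in an intron, and a TSS of TSPAN8 lies 2607 bp away. The LGR5 TSS was the nearer one, and the summit was inside the 2.5 kb used for promoters at LGR5 alone. Among the promoter regions closest to it in fold enrichment, over 1 library, were those of AP5M1, a subunit of an adaptor protein complex (4.55, 22 bp downstream of a TSS), and CHD9, a chromatin remodeler of the CHD family (4.55, 19 bp downstream).

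The second LGR5 summit was assigned to the gene by distance only. It lay at 71663816, in a region from 71663659 to 71664046, and was 92552 bp from the nearest LGR5 TSS, which starts a transcript with a retained intron, and 224018 bp from the canonical one. It fell in an exon of ZFC3H1, which encodes a zinc finger protein of nuclear RNA decay, 3 bp downstream of a ZFC3H1 TSS and 485 bp upstream of that of THAP2. Its fold enrichment was 4.77 and its −log10 q-value 4.91, with 19 reads over a background of 3.19. In height the LGR5 summits were alike, and they differed in place: one was at the start of LGR5, the other at the start of ZFC3H1.

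LGR4 (ENSG00000205213.14, chromosome 11, 27365961 to 27472790), the more widely expressed receptor of the family, had no summit by the rule. The nearest was at 27234370, 139630 bp downstream of an LGR4 TSS (4.36-fold, −log10 q-value 4.95), and its nearest protein-coding TSS was that of CCDC34 at 116054 bp. Farther on lay a summit of 4.71-fold at 171790 bp and one of 9.05-fold at 237816 bp, the latter with a −log10 q-value of 23.6. Both of these were nearer to BBOX1, which encodes an enzyme of carnitine synthesis, at 146784 bp and 80758 bp. No protein-coding start lay nearer to the strong summit in this neighborhood than that of BBOX1.

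LGR6 (ENSG00000133067.18, chromosome 1, 202193799 to 202319781), a receptor known as a marker of skin stem cells, also had none. Its nearest summit, at 202035127, was 158672 bp upstream (4.58-fold, −log10 q-value 6.25). That summit was 21349 bp from a TSS of ELF3, an epithelial ETS transcription factor gene. LGR4 and LGR6 thus both differed from LGR5 in having no summit within 100 kb, while the height of the nearest one was close to that at LGR5.

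Among the 4 ligands, only RSPO2 (ENSG00000147655.12, chromosome 8, 107899316 to 108083642, minus strand) had a summit by the rule. The region lay at 107895306 to 107895630, with the summit at 107895548, 3768 bp beyond the 3′ end of the gene, in an intron of the long noncoding RNA gene ENSG00000287949. It was 94007 bp downstream of the nearest RSPO2 TSS and 188072 bp from the canonical one. This region had the fewest reads and the lowest −log10 q-value of the 6, though not the lowest fold enrichment, with 10 reads over a background of 1.36, a 4.65-fold enrichment and a −log10 q-value of 2.40, the latter higher than that of 9.15% of all TCF7L1 regions.

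The RSPO2 region also differed from the others in its sequence. Of the 31-base words in its 201 bp window, 89.5% occurred more than once in the genome, with a median of 140 and a highest count of 3240 copies. In the other 5 windows every word occurred once. Reads from a window of many copies can be placed at more than one position, and the part of this in the RSPO2 region was not tested.

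RSPO1, RSPO3 and RSPO4 had no summit. For RSPO3 (ENSG00000146374.14, chromosome 6, 127118671 to 127199481) the nearest was at 127266745, 146918 bp downstream of a TSS, and it sat 19 bp from a TSS of RNF146, which encodes a ubiquitin ligase of axin and so another part of the Wnt pathway. Its fold enrichment was 3.36 and its −log10 q-value 1.31, the weakest of the summits nearest to these genes together with that of RSPO4. For RSPO1 (ENSG00000169218.14, chromosome 1, 37611350 to 37634892) the nearest summit was 935270 bp upstream and strong (8.93-fold, −log10 q-value 33.1). It was 277912 bp from RRAGC, a Rag GTPase gene of amino acid sensing. For RSPO4 (ENSG00000101282.9, chromosome 20, 958452 to 1002311) the nearest summit was 3031586 bp away, again at 3.36-fold. The distances at RSPO1 and RSPO4 were the longest among the 9 genes.

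Both ligase genes held a summit inside the gene, far from the canonical start. RNF43 (ENSG00000108375.13, chromosome 17, 58353676 to 58417595, minus strand) had the strongest region of the 6. It spanned 58391334 to 58391895, and its summit at 58391600 lay in intron 2 of the canonical transcript. The stack was 51 reads over a background of 5.64, giving a 7.83-fold enrichment and a −log10 q-value of 25.1. These ranked 197 and 86 of 3663, so that 94.6% of TCF7L1 regions had a lower fold enrichment and 97.7% a lower −log10 q-value. Among the 3531 TCF7L1 regions that did not overlap a TCF7L1-MUT region, the RNF43 summit ranked 142 by fold enrichment and 49 by −log10 q-value.

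The RNF43 summit was 25934 bp downstream of the canonical TSS and 11121 bp downstream of the TSS of a shorter protein-coding transcript. No protein-coding gene had a TSS nearer than RNF43 itself. The readthrough gene ENSG00000285897 and the antisense gene TSPOAP1-AS1 also span the position, the former with its TSS 25995 bp and the latter 54242 bp away. RNF43 was thus the gene with the nearest start as well as the gene holding the summit, whereas at RSPO2 the gene had the nearest protein-coding start but did not hold the summit.

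ZNRF3 (ENSG00000183579.16, chromosome 22, 28883572 to 29057488, plus strand) had one summit within and one beyond the gene. The first, at 29030908 in a region from 29030660 to 29031109, lay in intron 2 of the canonical transcript, 43856 bp downstream of the nearest ZNRF3 TSS and 147336 bp from the canonical one. It had 26 reads over a background of 5.77, a 3.99-fold enrichment and a −log10 q-value of 5.16, and 16.8% of TCF7L1 regions had a lower fold enrichment. It was the lowest of the 6 in fold enrichment, and its GC content of 69.2% in 201 bp was the highest. A TSS of the antisense gene ZNRF3-AS1 lay 568 bp from it, and the nearest protein-coding TSS, that of C22orf31, lay 30923 bp away.

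The second ZNRF3 summit, at 29080502 in a region from 29080276 to 29080748, was 93450 bp from the nearest and 196930 bp from the canonical ZNRF3 TSS and 23014 bp past the end of the gene. The starts of C22orf31 and KREMEN1 lie between. It was in an intron of KREMEN1, 7371 bp downstream of a KREMEN1 TSS, and KREMEN1 encodes a receptor of DKK proteins that removes LRP6 from the cell surface. With 40 reads over the same background of 5.77 it reached a 6.06-fold enrichment and a −log10 q-value of 15.1, higher than those of 77.2% and 92.4% of TCF7L1 regions. The more distant of the ZNRF3 summits was therefore the stronger, and the neighboring start was that of another gene acting on LRP6.

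Distances near the limit of 100 kb decide part of these assignments. Just inside it were the distal summits of LGR5 at 92552 bp, ZNRF3 at 93450 bp and RSPO2 at 94007 bp. Just outside it was a further KREMEN1 summit, 110010 bp from ZNRF3 and 23931 bp from KREMEN1 (5.37-fold, −log10 q-value 7.60), and then the LGR4 summit at 139630 bp. With a limit of 50 kb, 3 summits remained, 1 each at LGR5, RNF43 and ZNRF3. With 250 kb there were 13 at 7 genes, and RSPO1 and RSPO4 still had none.

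The 6 regions as a set were lower than all TCF7L1 regions in median fold enrichment and higher in median −log10 q-value. Their median fold enrichment was 4.71, against 5.02 over all regions, and their median −log10 q-value was 5.96, against 5.50. The spread among the 6 was wide, from 3.99 to 7.83 in fold enrichment and from 10 to 51 reads at the summit. RNF43 and the distal ZNRF3 summit stood above the median of all regions on both measures, and the other 4 had a fold enrichment below it.

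**Figure D2:**
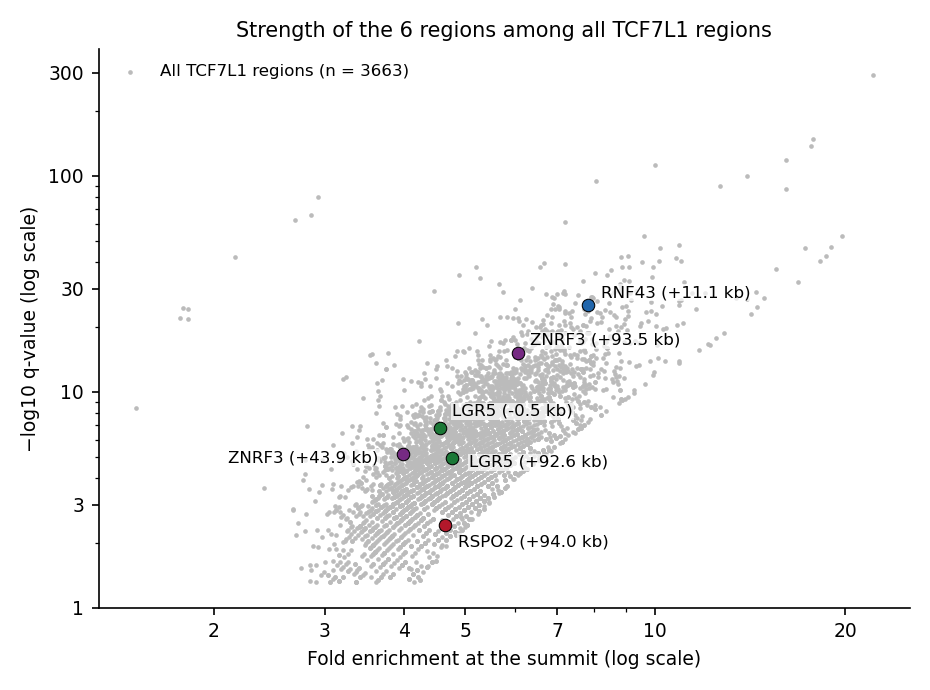
Fold enrichment (horizontal axis, log scale) against −log10 q-value (vertical axis, log scale) of each TCF7L1 region, with the 6 regions at the R-spondin receptor genes in color and their distance to the nearest TSS of the named gene in brackets. RNF43 (7.83, 25.1) and the distal ZNRF3 region (6.06, 15.1) lie to the upper right, and RSPO2 (4.65, 2.40) lies at the lower edge.

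To compare these sites with those of the protein with the mutated DNA-binding domain, TCF7L1-MUT summits were counted in the same way. None of the 9 genes had one, against 148 of all protein-coding genes (0.739%), and none of the 6 TCF7L1 regions overlapped a TCF7L1-MUT region by 1 bp or came within 1 kb of one. With so few TCF7L1-MUT regions in all, 0 of 9 is close to that share and reads as nothing particular to these genes. Lack of a partner was likewise the usual case, since 3531 of the 3663 TCF7L1 regions had none. The nearest TCF7L1-MUT summit was 8545029 bp from ZNRF3, 15116958 bp from RNF43 and 22169653 bp from RSPO2, and chromosome 12, which carries LGR5, had 0 TCF7L1-MUT regions. The lowest −log10 p-value listed was 6.35 for TCF7L1-MUT and 5.21 for TCF7L1, and the 6 TCF7L1 summits ran from 6.66 at RSPO2 to 31.2 at RNF43. These values belong to separate libraries with their own backgrounds. Whether stacks like these 6 would have been listed in the TCF7L1-MUT library was not tested. Whether a weaker TCF7L1-MUT stack exists at these positions was not tested, since regions under the caller's limit are not listed.

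The TCF core was then looked for under the summits, because it is the sequence the HMG box of TCF proteins prefers. In the printed windows it was found 71 bp before the LGR5 upstream summit, 19 bp before the intronic ZNRF3 summit, and at both 70 bp before and 77 bp after the distal ZNRF3 summit. Thus 3 of the 6 windows held it, against 26.8% of 3582 TCF7L1 windows and 12.9% of 140 TCF7L1-MUT windows of the same length. At LGR5 and in the ZNRF3 intron the word was the same, CTTTGAT on the plus strand.

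In 2 of the other windows the TCF core was missed by a few bases. It lay 107 bp from the RNF43 summit, as CTTTGAT on the minus strand, and 104 bp from the distal LGR5 summit, as CTTTGTT on the minus strand, both outside the 100 bp searched but inside the called region. Over the called regions 5 of 6 held a TCF core, against 45.0% of 3582 regions in the TCF7L1 sample and 23.6% of 140 in the TCF7L1-MUT sample. The exception was RSPO2, where the nearest one was 267 bp from the summit and outside the region. The lengths searched were unlike, with a median of 462 bp for the 6 regions, 410 bp for TCF7L1 and 398 bp for TCF7L1-MUT. The strongest of the 6 regions, that of RNF43, thus had its TCF core farther from the summit than both ZNRF3 regions and the LGR5 promoter region did.

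Of the other patterns searched in the 201 bp windows, a looser TCF pattern was the most frequent. This pattern, TTTGA or TTTTA followed by A or T, whose letters lie within some forms of the core, was in 5 of the 6 windows. It was in 53.6% of all TCF7L1 windows and in 51.4% of 140 TCF7L1-MUT windows, so it hardly differed between the samples. The forkhead pattern was in the RNF43 window alone, 26 bp from the summit, and in 12.7% of all TCF7L1 windows. A GATA pattern, GATAA or GATAG after A or T, was found in the LGR5 upstream window alone, 10 bp from the summit at its nearest, and in 31.9% of all windows. The AP-1 pattern, TGACTCA or TGAGTCA, and the SP/KLF pattern GGGCGG were in none of the 6, against 7.37% and 14.1% of all TCF7L1 windows. The distal LGR5 window, at the GC-rich start of ZFC3H1, held none of the 6 patterns.

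**Figure D3:**
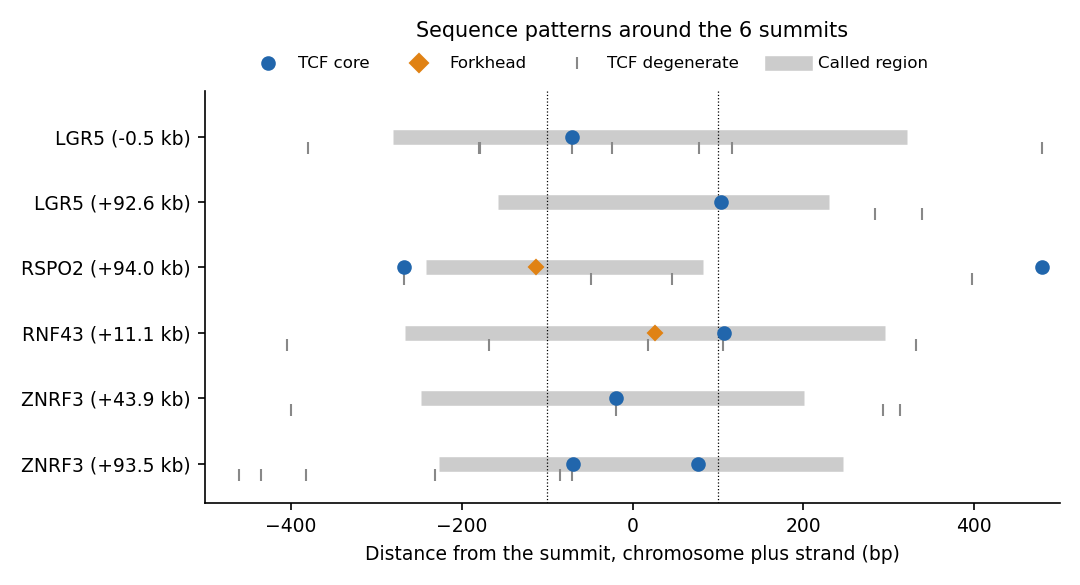
Matches to 3 sequence patterns within 500 bp of each of the 6 summits; the horizontal axis is the distance in bp from the summit on the plus strand, grey bars are the called regions, and dotted lines mark the 201 bp window. Blue circles (TCF core) lie inside the window at the LGR5 upstream region and at both ZNRF3 regions, just outside it at the distal LGR5 region (104 bp) and at RNF43 (107 bp), and outside the called region at RSPO2 (267 bp).

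Most TCF cores at these genes had no summit. The spans around the 9 genes held 2151 of them, and 4 (0.186%) lay within 100 bp of a TCF7L1 summit, 1 at LGR5 and 3 at ZNRF3. Over chromosomes 1 to 22, X and Y, which include stretches far from any gene, 1132 of 2887796 (0.0392%) did. At the 4 genes with a summit the density of TCF cores was 1.19 per kb at RSPO2, 1.10 at LGR5, 0.858 at RNF43 and 0.850 at ZNRF3. At the 5 without one it was 1.24 per kb at RSPO3, 0.961 at LGR4, 0.684 at RSPO1, 0.645 at RSPO4 and 0.552 at LGR6. The ranges overlapped: the highest density and the 3 lowest were all at genes without a summit. The mean over the 9 spans was 0.909 per kb, against 0.983 per kb over the chromosomes.

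Promoter sequences from RefSeq (GRCh38.p14, 250 bases before to 50 after a start) were matched for 6 of the 9 genes, RSPO1, RSPO3, RSPO4, LGR4, LGR6 and RNF43, which have 9 promoters in that table. None of the 9 held a TCF core, against 13.8% of 35116 promoters. The promoter of the shorter RNF43 transcript, at chr17:58402672-58402971, matched the looser TCF pattern, the AP-1 pattern and the GATA pattern. It was the only one of the 9 with the looser TCF pattern, against 39.3% of all promoters, or the AP-1 pattern, against 4.95%. No TCF7L1 summit lay in it. LGR5, RSPO2 and ZNRF3, which had a summit by the rule, were not matched, so their promoters were not searched.

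Other genes of the pathway were described from lists. Of 39 genes of Wnt receptors, their antagonists and Wnt feedback, 16 (41.0%) had a TCF7L1 summit in the gene or within 100 kb and 8 (20.5%) had one within 2.5 kb of a TSS, beside 23.1% and 4.80% of all genes. The 8 were the Wnt receptor genes FZD1, FZD2, FZD8 and FZD10, DKK1, an inhibitor that binds LRP6, AXIN2, a scaffold of β-catenin breakdown, TNFRSF19, a receptor of the TNF family, and SP5, a transcription factor. Their promoter summits ran from 3.19-fold at AXIN2 to 6.83-fold at DKK1, with TNFRSF19 at 5.16-fold. The LGR5 summit at 4.56-fold was within that range. The RNF43 summit at 7.83-fold was not at a promoter, and summits of this list away from promoters reached 7.59-fold, at DKK1. KREMEN1 counts among the 16 through both ZNRF3 summits and through the further summit 23931 bp from its TSS. The lists thus share summits and are not independent.

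Markers or regulators of intestinal stem cells made a list of 14 genes, among them ASCL2, OLFM4 and EPHB2. Of these, 1 (7.14%) had a summit within 100 kb, against 23.1% of all genes. This was BMI1, a Polycomb group gene, with a summit of 3.39-fold 4269 bp upstream of a TSS. None had a summit within 2.5 kb, against 4.80% of all genes, and none of 14 is close to that share. Of 14 relatives by protein family, leucine-rich repeat receptors such as TSHR and membrane-anchored RING ligases such as RNF13, 2 (14.3%) had a summit within 100 kb, namely the relaxin receptor gene RXFP1 at 16523 bp and the ligase gene RNF128 at 75927 bp, and none had one within 2.5 kb. No gene of these lists had a TCF7L1-MUT summit within 100 kb. A gene without a listed summit is not thereby shown to be unbound. MYC, of the stem cell list, and DKK4, of the Wnt list, had no summit. The paper's ChIP-qPCR with the same tagged TCF7L1 detected binding at a Wnt-responsive element of MYC and at the DKK4 promoter.

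**Figure D4:**
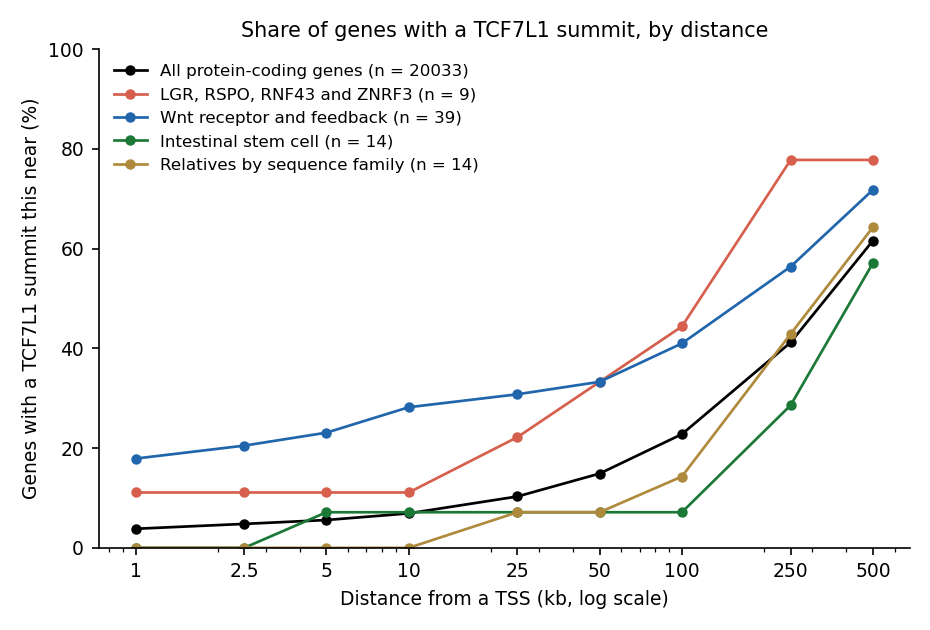
Share of genes (vertical axis, percent) with a TCF7L1 summit within a given distance of a TSS (horizontal axis, kb, log scale) for the 9 R-spondin receptor genes, 3 other lists and all protein-coding genes. The 9 genes go from 11.1% at 2.5 kb to 44.4% at 100 kb and 77.8% at 250 kb, and all genes from 4.80% to 22.8% and 41.2%; with 9 genes, 1 gene is 11.1%.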

How the data were processed

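ChIP-seq was performed on 2 samples, TCF7L1 and TCF7L1-MUT, grouped by the genotype in their labels, with 1 sample per group. Reads were trimmed by the authors with skewer and mapped to GRCh38/hg38, and peaks were called per sample; per the submitters' processing notes the tools included BWA (0.7.12) and MACS2 (2.1.0). An input library, the q-value limit and the handling of duplicate and multi-mapping reads are not given in the sources used here, and these can change which regions are listed, above all in repeated sequence.

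The deposited peak lists hold the fold enrichment, a ratio with a pseudocount of 1 added to reads and background, and the −log10 of the p-value and q-value, each copied from the authors' peak caller. Its score column was not used. A region with several summits was represented by that of highest −log10 q-value in ranks, and each summit counted in the search around genes. Reads and local background at a summit were solved from the fold enrichment and a Poisson p-value, and are on the scale of each library.

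Genes and TSSs of all transcripts came from GENCODE release 44, and the summits, overlaps (at least 1 bp), patterns (both strands, 100 bp to either side of the summit) and copies of 31-base words (194 assembled sequences) were computed with Python 3.11.15, numpy 2.4.6, scipy 1.17.1 and pysam 0.24.0. Pattern windows left out sequences outside the reference. The steps were tested on simulated data. The 9 genes and the 3 other lists were chosen with earlier results of these data known. Named were the 9 genes with each summit or the nearest one, the protein-coding genes nearest to or between a summit and its gene, the 3 promoter regions most like that of LGR5 in fold enrichment (1 of them is not reported here), and any listed gene with a summit within 2.5 kb of a TSS. The genes next to the nearest summits, BBOX1, BMI1, RXFP1 and RNF128, and the noncoding and overlapping genes, were named after their values were seen. No p-value was computed between groups.

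Alternatives were windows of 50 kb and 250 kb, promoter distances of 1 kb and 5 kb, q-values up to 0.001, fold enrichments from 5 upward, the 5′ end of each gene or TSSs of protein-coding transcripts only, distances from the region's edge, other overlap rules, and other pattern windows.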

Additional observations from a re-analysis of the deposited data

How the results depend on the processing

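No paired analysis was possible because there was 1 sample per group, and for the same reason no library could be left out. Of 48 alternatives over 8 results, 25 kept the value within the tolerance and 23 moved it beyond. The tolerance was a ratio of 1.5 for counts and the 95% binomial interval for shares. The alternatives changed the width of a search, the summits or TSSs used, the overlap rule or the pattern. The 6 TCF7L1 summits became 3 with a window of 50 kb, 13 with 250 kb, 2 with a fold enrichment of at least 5, 3 with the 5′ end of each gene only, and 3 when the nearest protein-coding TSS had to be that of the gene itself, a setting chosen after seeing the data that kept the LGR5 promoter, RSPO2 and RNF43 summits. The 4 genes with a summit became 7 with 250 kb and 2, RNF43 and ZNRF3, with a fold enrichment of at least 5, which also took the promoter count from 1 to 0. The share of all genes with a summit (23.1%) became 15.5% with 50 kb, 41.2% with 250 kb, 19.9% with q-values up to 0.001, 11.7% with the fold limit of 5, 21.3% with 5′ ends and 22.1% with TSSs of protein-coding transcripts. The promoter share (4.80%) became 3.82% at 1 kb, 5.58% at 5 kb, 3.92% with the q-value limit, 1.92% with the fold limit, 3.34% with 5′ ends and 4.29% with protein-coding transcripts. The 3 windows with a TCF core became 1 with 50 bp and 5 with 250 bp to either side, and 5 with the looser TCF pattern. With 250 bp, 48.2% of 3578 TCF7L1 windows and 22.8% of 136 TCF7L1-MUT windows also held a TCF core. For the looser pattern these shares were 53.6% and 51.4% of the 201 bp windows. Within the tolerance, the 6 summits became 5 with the q-value limit and 4 with TSSs of protein-coding transcripts, and the 4 genes became 3 with 50 kb and under each of the q-value, 5′ end and protein-coding transcript settings. The q-value limit removed RSPO2 from the genes with a summit, and the limit to protein-coding transcripts removed RSPO2 and the distal LGR5 summit. The counts for TCF7L1-MUT and for overlaps stayed at 0 under each alternative tried, but none of these alternatives could have changed them. The nearest TCF7L1-MUT summit to any of these genes lay 8545029 bp from ZNRF3, far beyond the widest window of 250 kb. These alternatives are among the 25 that kept the value, and they do not show that the counts of 0 are stable. The height of each summit rests on 10 to 51 reads of 1 library.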
